A study of Mus musculus with 2 samples.

Results

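The collagen chains and further extracellular matrix and stromal genes of the spleen were examined during acetaminophen (APAP)-induced acute liver injury. Members were chosen by name among the protein-coding genes of the count table. They were all genes whose name begins like that of a collagen chain, together with 18 listed genes of proteoglycans, matricellular proteins, elastic fibres, laminins and stromal surface proteins. This gave 58 of 22791 genes. Of these, 39 encode collagen chains. A further 1, Col4a3bp, encodes the ceramide transfer protein and is no collagen (81 counts in APAP and 64 in ctrl). The APAP group consisted of male C57BL/6J mice aged 9 to 11 weeks that had been fasted overnight and were injected intraperitoneally with APAP at 300 mg/kg in saline. The control group (ctrl) consisted of male mice of the same strain and age, fasted alike, that were given saline alone. Spleens were taken at 30 h, and RNA was pooled in equal shares from 11 APAP-treated and 5 ctrl mice. Each pool gave 1 library, so that differences between groups have no replicate check and no p-value is given.

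The matrix of the spleen is made by few cells among many leukocytes. Fibroblastic reticular cells lay down fibres of the fibril-forming collagens I, III and V and wrap them in a basement membrane of collagen IV, laminin and nidogen. Endothelial cells of sinuses and vessels rest on the same kind of basement membrane, and capsule and trabeculae hold collagen fibres, elastin and smooth muscle. Collagens are triple helices of chains that often come from different genes, and cells usually make the chains of 1 collagen together.

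Massive analysis of cDNA ends (MACE) reads the 3′ end of a transcript, so that a count does not depend on transcript length. CPM is the count over the library total on a common scale. Levels of different genes can be set side by side in CPM as far as their reads were assigned to them. The APAP library held 2890947 counts and the ctrl library 2735788. A ratio is the count in APAP over that in ctrl after division by DESeq2 size factors, given with its exact 95% interval of counting error in brackets. It holds no variation between mice or library preparations. A gene is called higher or lower where it had at least 20 counts over both libraries and its interval excluded 1. A stricter size rule additionally asked for a ratio of 2 or more, or its inverse. Of the members, 38 had at least 20 counts, and 20 were below that minimum.

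The members together took 0.239% of all counts in APAP (Wilson interval 0.233 to 0.244) and 0.173% in ctrl (0.168 to 0.178). The ratio of the sums was 1.31 (1.26 to 1.36). In these tissue pools, more cells of a type and more RNA per cell cannot be told apart. Few genes carried this level. Sparc and Bgn alone gave 44.6% of the member counts in APAP and 39.4% in ctrl, and the 12 members with the most counts gave 83.6% in APAP and 79.3% in ctrl. Without Sparc the ratio of the sums was 1.21 (1.16 to 1.27).

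**Figure D1:**
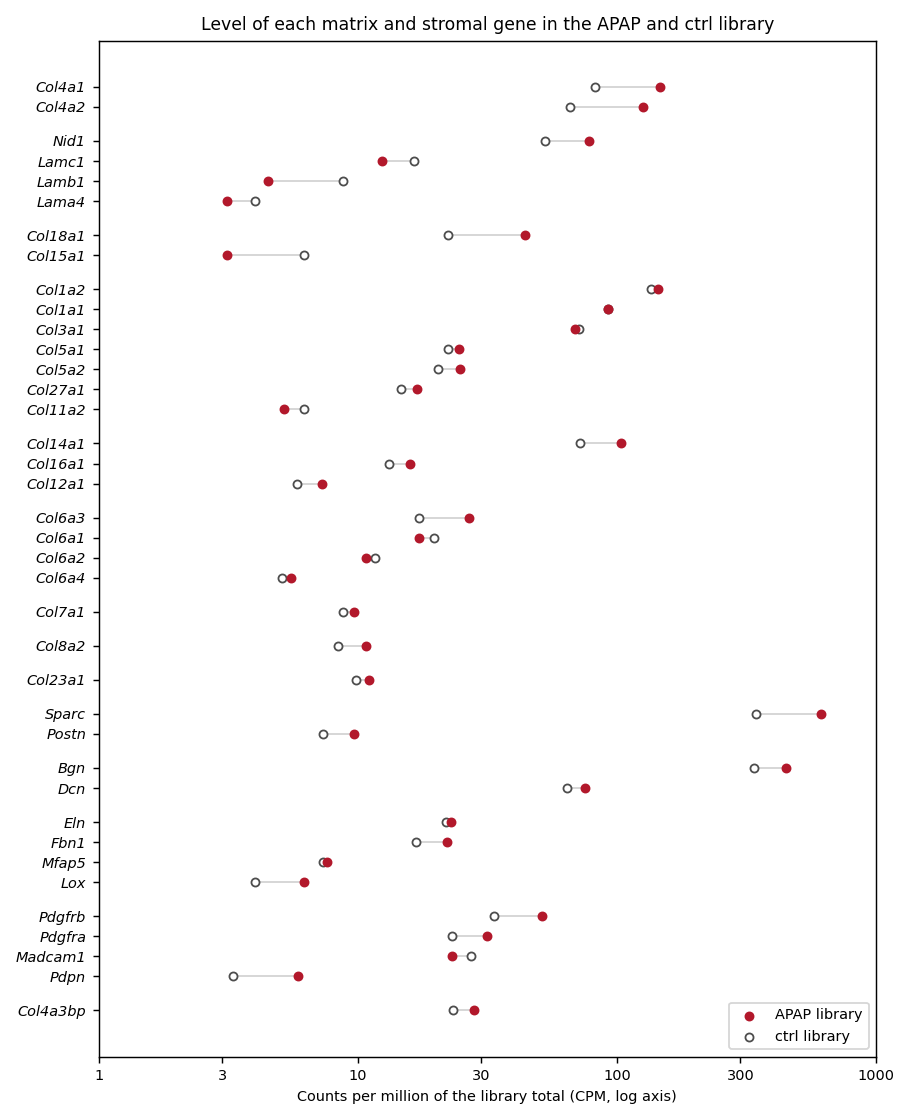
Level of the 38 members with at least 20 counts, in CPM on a log axis, with 1 filled point for the APAP library and 1 open point for the ctrl library per gene, grouped by role. Sparc and Bgn stand highest in both libraries, both Col4a1 and Col4a2 lie farther right in APAP, and the points of Col1a1, Col1a2 and Col3a1 nearly coincide.

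Of the 38 members, 26 had a ratio above 1, a share of 68.4% beside 53.2% of all 12929 genes with at least 20 counts. The median log2 ratio was 0.17 for the members and 0.02 for all genes. Called higher were 9 members, beside 9.13% of all genes, and called lower was 1 member, beside 6.57% of all genes. The size rule was met by none as higher, beside 1.39% of all genes, and by 1 as lower, beside 1.68%. A difference with a ratio of at least 1.5 was seen in 4 members, namely Col4a1, Col4a2, Sparc and Col18a1, and in 3.67% of all genes. Since intervals are narrow where counts are high, the 11 members with at least 200 counts are best read against genes of the same depth. Of these, 7 were called higher and none lower, beside 14.0% and 9.29% of 5122 genes.

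**Figure D2:**
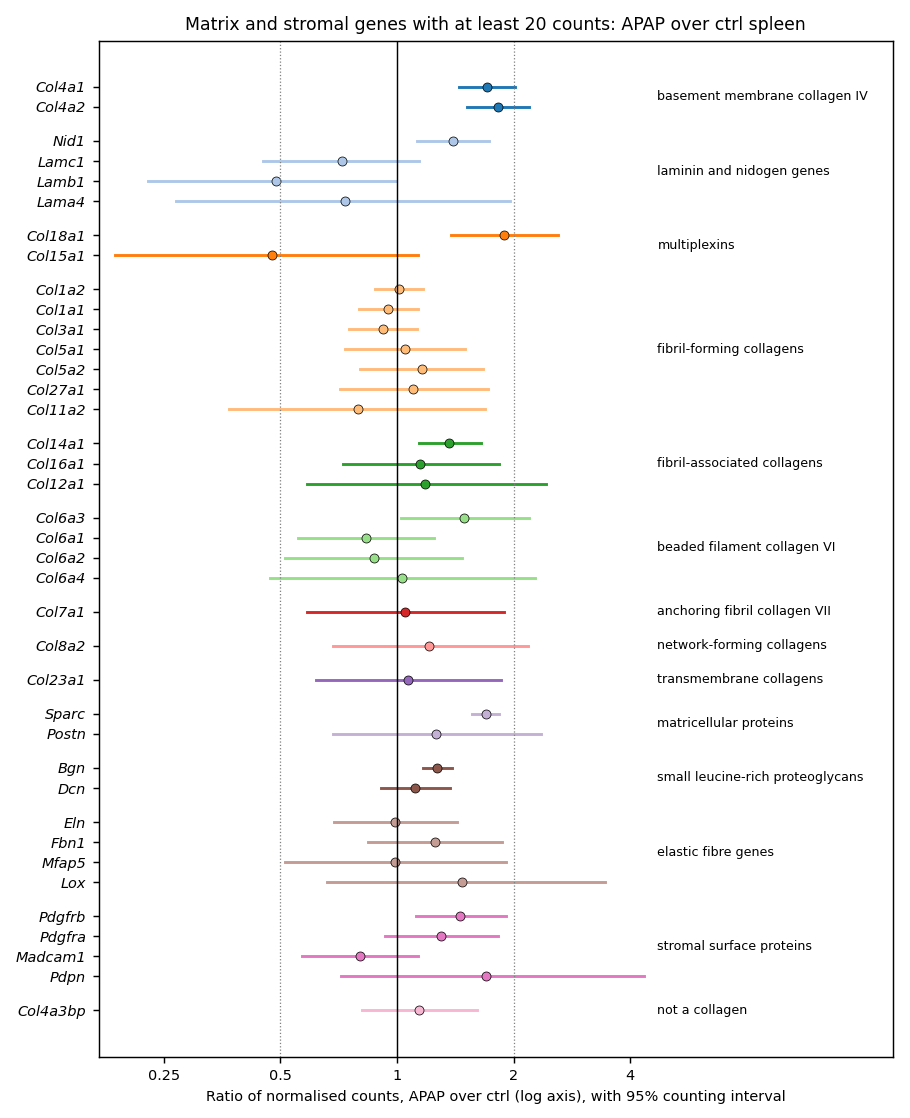
Ratio of normalised counts in APAP over ctrl for the 38 members, on a log axis, with horizontal lines for the 95% counting interval and grey lines at a ratio of 0.5 and 2. Both collagen IV chains, Col18a1 and Sparc lie right of 1 with their whole interval, whereas all 7 fibril-forming collagens have an interval that holds 1.

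Collagen IV, the network collagen of basement membranes, showed the clearest difference among the collagens. Its ubiquitous chains are encoded by Col4a1 (chr8:11198423-11312826, minus strand, build mm10) and Col4a2 (chr8:11312805-11449287, plus strand). Col4a1 had 426 counts in APAP (147 CPM) and 225 in ctrl (82.2 CPM), a ratio of 1.70 (1.45 to 2.01). Col4a2 had 364 counts in APAP (126 CPM) and 180 in ctrl (65.8 CPM), a ratio of 1.82 (1.52 to 2.19). Both genes were thus higher in APAP by a like margin, with upper bounds slightly above 2.

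These genes lie head to head, and their annotated bounds overlap on 22 bases of chromosome 8. The stretch is shown because it is the overlap of both annotated genes, which are read from opposite strands there. It was taken from the RefSeq promoter table (build GRCm38.p6, which is mm10) and is written on the plus strand, with the letters GGGCGG in capitals.
Col4a1/Col4a2 shared start, chr8:11312805-11312826: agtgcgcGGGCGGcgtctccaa
The same letters, searched on both strands, occur in 35.7% of all RefSeq promoter windows of 300 bases. Counted per gene, they occur in a window of 63.4% of the 41 members that have one, beside 38.2% of all genes with a window. Members and all genes were not matched in base composition or number of windows, so that no enrichment is read from these shares. A match is given as a description and not as a binding site. The other collagen IV genes are paired in the same manner. Between the starts of Col4a3 and Col4a4 on chromosome 1 lie 71 bases, and between those of Col4a5 and Col4a6 on chromosome X lie 1308 bases.

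These minor chains, best known from the basement membranes of kidney, lung and the sensory organs, were hardly seen. Col4a5 alone had more than 3 counts in a library, with 16 in APAP and 2 in ctrl. Its ratio was 7.20 with an interval of 1.69 to 64.5, but at 18 counts over both libraries it lay below the minimum and was not called. Its partner Col4a6 had 0 counts in APAP and 1 in ctrl.

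The laminin and nidogen members had ratios on both sides of 1. Nid1 encodes nidogen, which links laminin to collagen IV. It had 225 counts in APAP (77.8 CPM) and 145 in ctrl (53.0 CPM) and was higher, with a ratio of 1.40 (1.13 to 1.73). The 3 laminin chain genes had ratios below 1. Lamb1 had 13 counts in APAP and 24 in ctrl, a ratio of 0.488 (0.228 to 0.996), and was the member that met the size rule as lower. This call rests on few counts and was lost with 3 of the 5 other scalings. Lamc1 had 36 counts in APAP and 45 in ctrl (0.720, 0.451 to 1.14), and Lama4 had 9 in APAP and 11 in ctrl (0.736, 0.270 to 1.95). No difference was detectable for these 2 genes at this depth.

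Multiplexins are collagens of the basement membrane zone that carry heparan or chondroitin sulfate, and their C-terminal fragments include endostatin. Col18a1 (chr10:77052178-77166548, minus strand) had 128 counts in APAP (44.3 CPM) and 61 in ctrl (22.3 CPM). Its ratio of 1.89 (1.38 to 2.61) was the highest among members with at least 20 counts, and it reached 2.01 when libraries were scaled by totals counted without haemoglobins and immunoglobulins. Its relative Col15a1 had 9 counts in APAP and 17 in ctrl, a ratio of 0.476 (0.187 to 1.13) whose interval holds 1.

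Fibril-forming collagens, the tensile fibres of reticular tissue and capsule, differed by less than their counting error between libraries. Col1a1 and Col1a2 encode both chains of collagen I, and Col3a1 the single chain of collagen III. Col1a2 had 417 counts in APAP (144 CPM) and 371 in ctrl (136 CPM), a ratio of 1.01 (0.877 to 1.17). Col1a1 had 268 in APAP (92.7 CPM) and 254 in ctrl (92.8 CPM), a ratio of 0.95 (0.797 to 1.13). Col3a1 had 200 in APAP (69.2 CPM) and 196 in ctrl (71.6 CPM), a ratio of 0.918 (0.750 to 1.12). Summed over these 3 genes, the ratio was 0.970 and its interval 0.881 to 1.07, with an upper bound below the lower bound of either collagen IV gene. Under the other scalings this sum lay between 0.951 and 1.03, so that its direction is not fixed.

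Collagen V, which starts the assembly of collagen I fibrils, gave a similar result. Col5a1 had 71 counts in APAP and 61 in ctrl (1.05, 0.733 to 1.5), and Col5a2 had 72 in APAP and 56 in ctrl (1.16, 0.805 to 1.67). Col27a1 (49 in APAP, 40 in ctrl) and Col11a2 (15 in APAP, 17 in ctrl) had intervals that hold 1 as well. In all, none of the 7 fibril-forming collagens with at least 20 counts was called. An exon of the unnamed gene model Gm47302 overlaps exons of Col3a1 on the same strand, and how reads there were counted is not stated.

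Among collagens that bind to the surface of fibrils, Col14a1 was the most abundant. It had 299 counts in APAP (103 CPM) and 197 in ctrl (72.0 CPM) and was higher, with a ratio of 1.37 (1.14 to 1.64). Col16a1 (46 in APAP, 36 in ctrl) and Col12a1 (21 in APAP, 16 in ctrl) had ratios of 1.15 and 1.18 with intervals that hold 1. Collagen VI forms beaded filaments around cells. Of its chain genes Col6a3 was higher, with 78 counts in APAP and 47 in ctrl (1.49, 1.03 to 2.19), while Col6a1 (50 in APAP, 54 in ctrl, ratio 0.833) and Col6a2 (31 in APAP, 32 in ctrl, ratio 0.872) were not called. Col6a4 (16 in APAP, 14 in ctrl), Col7a1 of anchoring fibrils (28 in APAP, 24 in ctrl), Col8a2 of vessel wall networks (31 in APAP, 23 in ctrl) and the transmembrane Col23a1 (32 in APAP, 27 in ctrl) had ratios between 1.03 and 1.21, and none was called.

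Ratios of counts inside 1 library do not depend on the scaling between libraries. For 4 of the 5 pairs of chains of the same collagen, this ratio differed between libraries by less than counting error. Col1a1 over Col1a2 was 0.643 in APAP (0.549 to 0.751) and 0.685 in ctrl (0.581 to 0.805), and Col4a1 over Col4a2 was 1.17 in APAP (1.02 to 1.35) and 1.25 in ctrl (1.02 to 1.53). Col5a1 over Col5a2 was 0.986 in APAP and 1.09 in ctrl, and Col6a1 over Col6a2 was 1.61 in APAP and 1.69 in ctrl. The exception was Col6a3 over Col6a1, with 1.56 in APAP (1.08 to 2.27) and 0.870 in ctrl (0.576 to 1.31). The quotient of these values was 1.79 with an exact conditional interval of 1.02 to 3.15.

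Between collagens the proportion differed. Col4a1 and Col4a2 over Col1a1, Col1a2 and Col3a1 was 0.893 in APAP (0.810 to 0.984) and 0.493 in ctrl (0.437 to 0.556), a quotient of 1.81 (1.55 to 2.12). Of all collagen counts, Col4a1 and Col4a2 took 29.1% in APAP and 20.2% in ctrl, and Col1a1, Col1a2 and Col3a1 took 32.6% in APAP and 41.0% in ctrl. Lamb1 and Lamc1 encode a beta and a gamma chain of basement membrane laminins. The collagen IV genes over these 2 genes was 16.1 in APAP (12.1 to 22.0) and 5.87 in ctrl (4.54 to 7.69). This ratio rests on the few counts of Lamb1 and Lamc1. It leaves out the beta chain gene Lamb2, no member, which had 106 counts in APAP and 98 in ctrl (0.973, 0.733 to 1.29). These groupings of genes were chosen after their values were seen.

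**Figure D3:**
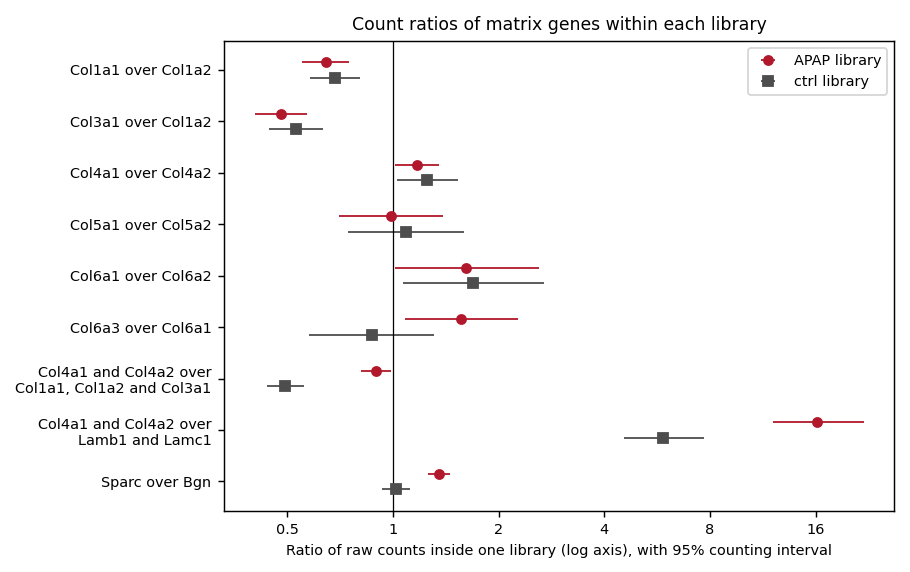
Ratio of raw counts of the named genes inside the APAP library (circles) and inside the ctrl library (squares) on a log axis, with 95% counting intervals. Intervals of both libraries overlap for chains of the same collagen, and lie apart for collagen IV over collagens I and III, for collagen IV over Lamb1 and Lamc1, and for Sparc over Bgn.

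Matricellular proteins bind matrix and cells without forming fibres themselves. Sparc, also called osteonectin, is a collagen-binding glycoprotein, and it was the member with the most counts (chr11:55394500-55423183, minus strand). It had 1770 counts in APAP (612 CPM) and 941 in ctrl (344 CPM), a ratio of 1.69 (1.56 to 1.83). A ratio at or above that of Sparc was found in 0.918% of the 5122 genes with at least 200 counts, Col4a1 and Col4a2 included. Postn, encoding periostin, had 28 counts in APAP and 20 in ctrl (1.26, 0.685 to 2.36). Tnc, encoding tenascin C of reticular fibres and wounds, had 1 in APAP and 4 in ctrl. Neither was called.

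Small leucine-rich proteoglycans coat collagen fibrils and limit their width. Bgn, encoding biglycan, had 1306 counts in APAP (452 CPM) and 925 in ctrl (338 CPM) and was higher by a smaller margin than Sparc, with a ratio of 1.27 (1.17 to 1.38). Sparc over Bgn was accordingly 1.36 in APAP (1.26 to 1.46) and 1.02 in ctrl (0.928 to 1.12). Dcn, encoding decorin, had 217 counts in APAP (75.1 CPM) and 175 in ctrl (64.0 CPM), with a ratio of 1.12 (0.910 to 1.37) that was not called. Lum, encoding lumican, had 4 counts in APAP and 9 in ctrl.

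Elastic fibre genes held no called member. Eln, encoding elastin, had 66 counts in APAP and 60 in ctrl (0.990, 0.687 to 1.43). Fbn1, the fibrillin that scaffolds elastin, had 64 in APAP and 46 in ctrl (1.25, 0.844 to 1.87). Mfap5, a microfibril protein, had 22 in APAP and 20 in ctrl, and Lox, the lysyl oxidase that cross-links collagen and elastin, had 18 in APAP and 11 in ctrl (1.47, 0.659 to 3.45).

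Stromal surface genes showed mixed ratios. Pdgfrb, the receptor of pericytes and reticular cells, had 149 counts in APAP (51.5 CPM) and 92 in ctrl (33.6 CPM) and was higher, with a ratio of 1.46 (1.12 to 1.91). Pdgfra of fibroblasts had 91 in APAP and 63 in ctrl (1.30, 0.933 to 1.82). Pdpn, encoding podoplanin of T zone reticular cells, had 17 in APAP and 9 in ctrl (1.70, 0.717 to 4.33). Madcam1, an addressin that in spleen marks cells lining the marginal sinus, had 67 in APAP and 75 in ctrl (0.804, 0.570 to 1.13). The last 3 were not called.

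The 20 members with fewer than 20 counts had 69 counts in APAP and 68 in ctrl in total, and no difference of any of them is read from these libraries. Just inside the minimum was Lama4 with 20 counts over both libraries, and just outside were Col13a1 (12 in APAP, 6 in ctrl) and Col4a5 with 18 each. In 10 of the 20, neither library exceeded 3 counts, the number that a count of 0 still allows, which is 1.04 CPM in APAP and 1.10 CPM in ctrl. Col26a1 had 4 counts in APAP and 0 in ctrl. The cartilage collagen genes Col9a2, Col9a3 and Col10a1 had between 0 and 7 counts in a library.

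Collagen chains are modified and folded in the endoplasmic reticulum before export. Of 17 listed enzymes and chaperones of this step with at least 20 counts, 6 were higher and none lower, beside 9.13% and 6.57% of all genes, with a median log2 ratio of 0.22. These shares of all genes called higher and lower are 14.0% and 9.29% where at least 200 counts are asked for, and abundant genes of the lists are to be read against those. Fkbp10, a prolyl isomerase of procollagen folding, met the size rule with 50 counts in APAP and 16 in ctrl (2.81, 1.58 to 5.29). Serpinh1, the collagen-specific chaperone HSP47, had 387 in APAP and 255 in ctrl (1.37, 1.16 to 1.61). P4hb, a subunit of prolyl 4-hydroxylase with a general role in disulfide formation, had 982 in APAP and 758 in ctrl (1.17, 1.06 to 1.28). Among the 17 genes, 12 had a ratio above 1 and 5 a ratio below 1, and the interval of 11 held 1.

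Of 14 listed genes of procollagen processing, cross-linking and collagen receptors with at least 20 counts, 5 were higher and 1 lower (median 0.10), so that the share called lower was near the 6.57% of all genes, while 9.13% of all genes were called higher. Mrc2, an endocytic collagen receptor, met the size rule as higher, with 36 counts in APAP and 16 in ctrl (2.02, 1.10 to 3.91). Itga10, the collagen-binding integrin chain alpha 10, met it as lower, with 6 in APAP and 20 in ctrl (0.270, 0.0887 to 0.697). The most abundant were Itgb1, the beta chain shared by collagen and laminin receptors, with 614 in APAP and 460 in ctrl (1.20, 1.06 to 1.36), and the cross-linking transglutaminase Tgm2, with 410 in APAP and 253 in ctrl (1.46, 1.24 to 1.71).

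Further matrix genes outside the members were examined as well. Of 9 other basement membrane genes, 2 were higher and none lower (median 0.10), beside 9.13% and 6.57% of all genes. Smoc2, a relative of Sparc found at basement membranes, had 1198 counts in APAP (414 CPM) and 522 in ctrl (191 CPM) and met the size rule with a ratio of 2.07 (1.86 to 2.29). The other gene called higher was Hspg2, encoding perlecan, with 136 in APAP and 91 in ctrl (1.35, 1.02 to 1.77). Npnt, encoding nephronectin, had 307 in APAP and 281 in ctrl (0.983, 0.834 to 1.16).

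Of 25 other interstitial and elastic matrix genes, 5 were higher and 1 was lower (median 0.22), beside 9.13% and 6.57% of all genes. The lower gene was Ltbp4, a binding protein of latent TGF-beta, with 182 counts in APAP and 218 in ctrl (0.751, 0.614 to 0.919). None of the 25 met the size rule. The most abundant were Tgfbi, a collagen-binding protein induced by TGF-beta, with 627 in APAP and 383 in ctrl (1.47, 1.30 to 1.68), and Fn1, encoding fibronectin, with 445 in APAP and 287 in ctrl (1.40, 1.20 to 1.62). Of 10 genes of the TGF-beta pathway, the main inducer of fibrillar collagen, 2 were higher, none lower and none met the size rule (median 0.07), beside 9.13% of all genes called higher and 14.0% of those with at least 200 counts. They were the receptor gene Tgfbr2 with 564 in APAP and 447 in ctrl (1.14, 1.001 to 1.29) and the inhibitory Smad7 with 114 in APAP and 57 in ctrl (1.80, 1.30 to 2.52). The receptor gene Tgfbr1 had 141 in APAP and 123 in ctrl (1.03, 0.804 to 1.32).

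Markers of the cells that make matrix were present in both libraries. The splenic stromal regulators Tlx1 (134 counts in APAP, 101 in ctrl), Nkx2-5 (37 in APAP, 18 in ctrl) and Tcf21 (341 in APAP, 210 in ctrl) were all detected. The 19 listed markers of reticular and perivascular cells summed to 2774 CPM in APAP and 2052 CPM in ctrl, and of 17 with at least 20 counts, 8 were higher and 1 lower (median 0.45), beside 9.13% and 6.57% of all genes and 14.0% and 9.29% of those with at least 200 counts. Cxcl12, the chemokine of red pulp reticular cells, had 2360 counts in APAP (816 CPM) and 1413 in ctrl (516 CPM), a ratio of 1.5 (1.41 to 1.61). Vcam1, which red pulp macrophages express too, had 2072 in APAP (717 CPM) and 1320 in ctrl (482 CPM), a ratio of 1.41 (1.32 to 1.51). Cxcl12 and Vcam1 weighed most in the summed CPM of the list. Ngfr (22 in APAP, 7 in ctrl) and Grem1 (26 in APAP, 9 in ctrl) met the size rule, whereas Ccl19, the T zone chemokine, was lower with 270 in APAP and 309 in ctrl (0.786, 0.665 to 0.929).

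Endothelial markers, which go with basement membrane collagen, summed to 975 CPM in APAP and 668 CPM in ctrl. Of 11 with at least 20 counts, 5 were higher and none lower (median 0.48), beside the same shares of all genes, and none met the size rule. Plvap of fenestrated and sinus endothelium had 1073 counts in APAP and 533 in ctrl (1.81, 1.63 to 2.01), while Pecam1 had 330 in APAP and 333 in ctrl (0.892, 0.764 to 1.04). Smooth muscle markers summed to 314 CPM in APAP and 242 CPM in ctrl. Called higher was 1 of 7 (median 0.19), beside 9.13% of all genes and 14.0% of those with at least 200 counts. It was Tagln with 369 counts in APAP and 217 in ctrl (1.53, 1.29 to 1.82), while Mylk had 268 in APAP and 211 in ctrl (1.14, 0.951 to 1.38). The part of these cells in the collagen IV difference was not tested.

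Most listed markers of pancreas, mesothelium, fat and hepatocytes had a ratio below 1. The 14 pancreatic acinar markers summed to 19135 CPM in APAP and 62882 CPM in ctrl. All 14 were lower, beside 6.57% of all genes and 9.29% of those with at least 200 counts. Amylase (Amy2a5) had 7260 counts in APAP and 21806 in ctrl (0.300, 0.292 to 0.308), and chymotrypsinogen (Ctrb1) had 7597 in APAP and 22539 in ctrl (0.303, 0.296 to 0.311). Trypsin 2 (Prss2) had 6665 in APAP and 20885 in ctrl (0.287, 0.279 to 0.295). Called lower were 3 of 7 mesothelial, 4 of 8 adipocyte and 8 of 10 hepatocyte markers, each beside the same shares of all genes. Mesothelial markers summed to 47.4 CPM in APAP and 72.4 CPM in ctrl. The sums were 215 CPM in APAP and 320 CPM in ctrl for adipocyte markers. For hepatocyte markers they were 603 CPM in APAP and 654 CPM in ctrl. All genes called in the mesothelial list were keratins, namely Krt18 (6 counts in APAP, 28 in ctrl), Krt8 (8 in APAP, 21 in ctrl) and Krt19 (4 in APAP, 16 in ctrl). The most abundant gene of that list, Wt1, had 67 in APAP and 55 in ctrl (1.10, 0.756 to 1.6), and Upk3b (17 in APAP, 26 in ctrl) and Msln (16 in APAP, 22 in ctrl) were not called. Of the adipocyte list, Cfd, encoding adipsin, had 134 in APAP and 307 in ctrl, Plin1, encoding perilipin, had 6 in APAP and 16 in ctrl, and Lpl, encoding lipoprotein lipase, had 213 in APAP and 199 in ctrl (0.963, 0.790 to 1.17). Of the hepatocyte list, Alb had 272 in APAP and 423 in ctrl, Serpina3k had 40 in APAP and 81 in ctrl, Hpx had 26 in APAP and 59 in ctrl, and Fga had 18 in APAP and 45 in ctrl. In the hepatocyte list Trf, encoding transferrin, was higher with 1213 in APAP and 921 in ctrl, and it made up most of the sum. None of these lists was at 0 in either library. Pancreas, fat and mesothelium have collagen of their own, and their part in the member ratios was not tested. With library totals counted without the acinar markers, 9 members were called higher as before and the median was 0.18.

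**Figure D4:**
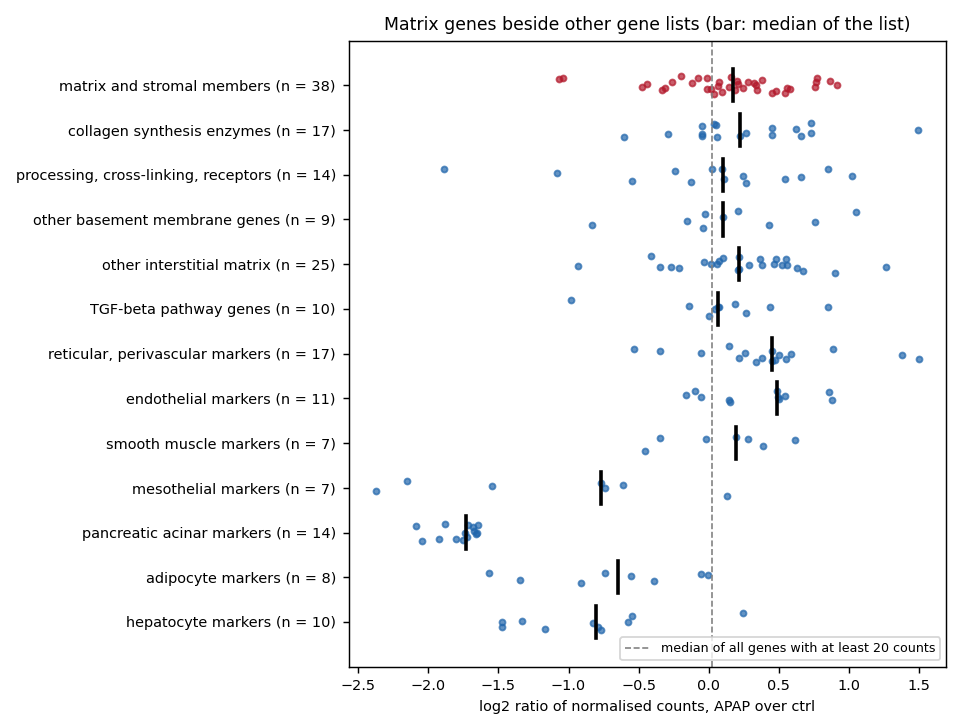
The log2 ratio of normalised counts in APAP over ctrl for each gene with at least 20 counts (points), for the members and for the 12 other lists, with a black bar at the median of each list and a dashed line at the median of all genes. Members spread from -1.07 to 0.92 around a median of 0.17, reticular and endothelial markers have medians of 0.45 and 0.48, and all pancreatic acinar markers lie below 0.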

How the data were processed

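Splenic RNA pools of the APAP and ctrl group were sequenced as 1 MACE library each. According to the methods, the authors removed duplicate reads by unique molecular identifiers, trimmed with cutadapt, clipped poly(A) tails, mapped to mm10 and counted with HTSeq. DESeq2 is also named. Versions, the aligner, the annotation and the strand setting were not given in the sources used here, so that reads of overlapping genes on opposite strands may not be told apart. The deposited raw counts per gene were used for all results. The columns that the authors head as TPM are CPM (count over library total), and a further deposited signal is the count over a size factor. Both were used only to check the files, and 3 columns of means were not used.

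Size factors were computed with DESeq2 1.42.0, so that a raw ratio of APAP over ctrl was divided by 1.11. Intervals of ratios derive from the Clopper-Pearson interval at 95% (scipy 1.17.1) and cover counting error only, as do the Wilson intervals of shares. Alternatives were library totals with and without certain genes, TMM and upper quartile factors (edgeR 4.0.16), other minimum counts and other ratio thresholds. Rules were tested on simulated counts that held counting error only, so that variation between mice or library preparations was not covered. All 58 members matched GENCODE M21 by identifier, and 38 have no exon of another gene over their own exons. The collagen genes Col2a1, Col9a1, Col11a1, Col24a1 and Col25a1 are not among the deposited genes with counts and so were not analysed here. Protein features of the collagens were planned and not analysed here.

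Members given with values were those called or meeting the size rule and up to 4 with the most counts per role, and of other lists up to 3 that met the size rule and the 2 with the most counts. Other genes given with values (low-count members, Lamb2, Hspg2, Ltbp4, Smad7, Ccl19, Msln and the stromal regulators) were picked with their values in view. Members and lists were chosen with earlier results of these data known.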

Additional observations from a re-analysis of the deposited data

How the results depend on the processing

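With 1 library per group no replicate can be left out. No paired analysis was possible because APAP and ctrl have 1 library each. All 190 ratios of the 38 members under 5 other scalings stayed inside their counting intervals, and 9 members were called higher under each scaling. The median log2 ratio of the members lay between 0.09 (collagens alone) and 0.26 (totals counted without haemoglobins and immunoglobulins, here called reduced totals). The call of Lamb1 as lower, the only one, gave 0 members with library totals, with reduced totals, with totals without acinar markers and with at least 50 counts, and the size rule at a ratio of at least 3 also gave 0. The size rule as higher, met by 0 members, was met by 1 with reduced totals (Col18a1), by 1 with a minimum of 10 counts or with none (Col4a5), and by 4 at a ratio of at least 1.5. The pancreatic median was -1.73, and it was -1.66 with library totals and -1.64 with reduced totals. The summed share of the members became 0.260% in APAP and 0.187% in ctrl with reduced totals. It was 0.177% in APAP and 0.139% in ctrl without Sparc. With totals without acinar markers it was 0.243% in APAP and 0.185% in ctrl.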

Other observations

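Some listed genes had fewer than 20 counts over both libraries and are given as values only, picked with their values in view. Ddr2, a collagen receptor of fibroblasts, had 12 counts in APAP and 0 in ctrl. Ppib, the cyclophilin of the procollagen prolyl 3-hydroxylation complex, had 1 count in each library. Its partners Crtap and P3h1 had 82 and 35 counts in APAP and 48 and 19 in ctrl. Whether the few counts of Ppib reflect its level in spleen or the assignment of its reads was not tested.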
